A study of Mus musculus with 6 samples.

Results

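A set of 45 autophagy and lysosome genes was taken from a table of 55039 mouse genes by gene name, and all 45 were found and had enough reads to be tested. They comprise 31 genes that build the autophagosome or tie cargo to it, 2 transcription factors and 12 genes of the lysosome. The tissue was epididymal white adipose tissue (eWAT), a visceral fat depot, of male C57BL/6 mice that were 6 to 7 weeks old at the start. The cancer-associated cachexia (CAC) mice had received Lewis lung carcinoma (LLC) cells under the skin, a mouse tumor line that causes wasting, and the control (CONT) mice had received PBS. Tissue was taken after 28 days, and RNA was sequenced from 3 mice in each group, 1 library per mouse. No other genotype or treatment is given for either group, and a transplanted tumor line models the wasting of 1 kind of cancer only.

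Autophagy encloses cytoplasm in a membrane sac, the autophagosome, which then fuses with the lysosome so that the contents are broken down and reused. ULK kinases start the sac, lipid transfer proteins enlarge it, and a conjugation system attaches small ATG8 proteins (the LC3 and GABARAP families) to its membrane, where receptors bind them and bring in cargo such as mitochondria or protein aggregates. In the lysosome, cathepsins digest proteins, acid lipase digests lipids, and NPC1 and NPC2 pass the released cholesterol on. In fat cells this route can also take up lipid droplets, and fasting is known to switch it on. RNA levels measure neither the rate at which autophagosomes form nor the rate at which their contents are degraded.

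The libraries held 15713794 to 25926425 counted reads, and 1 CPM (the read count scaled to the TMM-adjusted library size, the level used below) stood for 11.2 to 26.5 reads. CONT replicate 1 stood apart, with 30.2% of its reads on genes of the mitochondrial genome against 3.89% to 5.04% in the other libraries, and it was the lowest of the 6 libraries for 19 of the 45 genes. CAC replicate 3 was the highest for 16. CONT replicate 3 carried transcripts of the epididymis, the organ that this depot lies on, with 9509 CPM summed over 5 markers. CONT replicate 1 had 132 CPM and CONT replicate 2 had 2.72 CPM, against at most 0.680 CPM in any CAC library. All 10 adipocyte markers were detected in every library, with a summed level of 23350 to 54950 CPM in CONT and 33250 to 46310 CPM in CAC. The leptin gene Lep had only 99 reads in CAC replicate 2 and 11 in CAC replicate 3, against 12457 in CAC replicate 1 and 7820 to 9335 in CONT. The 7 fibroblast and progenitor markers included 4 lower in CAC at an unadjusted p under 0.05 in edgeR, beside 6.95% of all genes. Dcn went the other way, at 973, 780 and 824 CPM in CONT and 1297, 1498 and 1099 CPM in CAC, and Pdgfra and Dpp4 overlapped. The sum of the 7 was 1828 to 2347 CPM in CONT and 1345 to 1911 CPM in CAC. The 6 B and plasma cell markers included 3 lower ones by the same test, with a sum of 34.4 to 91.5 CPM in CONT and 7.82 to 19.0 CPM in CAC. The part of these cell types in the values of the 45 genes was not tested. In bulk tissue, fewer cells of a type and less RNA per cell cannot be told apart.

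TFEB and TFE3, the transcription factors known for driving lysosome genes, bind the E-box letters CACGTG. RefSeq promoter windows (GRCm38.p6, 250 bases before to 50 after the start site) were at hand for 38 of the 45 genes, and CACGTG, searched on both strands, lay in the windows of 9 of them (23.7%), against 8.09% of the 27025 genes with a window. The 9 were Atg14, Atg3, Atg5, Atg7, Bnip3, Lamp1, Ctsa, Ctsd and Ctsl. The longer palindrome TCACGTGA, which contains CACGTG, was in 3 of 38 (7.89%) against 1.12% of all genes. The FoxO letters GTAAACA were in 0 of 38, against 4.05% of all genes. The hypoxia core letters ACGTG were in 16 of 38 (42.1%), against 21.8% of all genes. Every CACGTG contains ACGTG, so each site marked below matches both. Sequences are shown for the gene of the set with the smallest p-value and for the gene whose upstream bases held the most CACGTG copies. Each run below is the 250 bases before the RefSeq start site, 5′ to 3′, with CACGTG in capitals.
Bnip3: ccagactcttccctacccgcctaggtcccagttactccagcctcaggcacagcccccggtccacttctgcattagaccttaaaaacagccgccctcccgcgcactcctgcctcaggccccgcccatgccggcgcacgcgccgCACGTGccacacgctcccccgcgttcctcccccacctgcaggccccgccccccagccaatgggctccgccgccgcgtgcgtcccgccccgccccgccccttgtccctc
Lamp1: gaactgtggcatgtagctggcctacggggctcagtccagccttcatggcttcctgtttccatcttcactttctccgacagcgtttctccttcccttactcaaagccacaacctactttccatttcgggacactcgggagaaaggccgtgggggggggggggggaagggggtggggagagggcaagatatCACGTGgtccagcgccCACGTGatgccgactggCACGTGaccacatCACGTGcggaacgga
The Bnip3 run lies at chr7:138909507-138909756 on the minus strand, its 1 E-box starts 108 bases before the start site, and its last few bases fall inside the first exon of the Ensembl gene model. The Lamp1 run lies at chr8:13158911-13159160 on the plus strand, and its 4 E-boxes start 61, 45, 28 and 15 bases before the start site. A match of letters is a description and does not show binding.

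Most of the autophagy and lysosome genes that separated the groups were higher in CAC. Of the 31 autophagosome genes, 13 lay above CONT in every CAC library (Bnip3, Ulk1 and Gabarapl1 among them) and 1 lay below (Atg4a), while of the 12 lysosome genes 2 lay above (Npc1 and Lamp2) and 1 below (Npc2). By edgeR's quasi-likelihood test with all 6 libraries, 9 members were higher and 1 was lower in CAC at an unadjusted p under 0.05, while over the 17296 genes tested the shares were 6.31% higher and 6.95% lower. The 10 genes make up 22.2% of the members, against 13.3% of all genes. The members were chosen with earlier results of these data known. A share above that of all genes, here or below, is therefore no added support. The count of 10 was 5 of 45 without CONT replicate 2, CAC replicate 2 or CAC replicate 3, beside 9.3%, 7.24% and 8.32% of all genes in those fits, and 6 without CONT replicate 3, beside 9.25%. Every CAC library lay above every CONT library for 15 members and below for 2, where the background was 11.8% and 10.7%. Together these 17 are 37.8% of the members, against 22.5% of all genes. The median log2 fold change was 0.11 over the members and -0.055 over all genes, and 30 of the 45 members lay above 0, against 45.9% of all genes. With single libraries left out the median of the members was 0.14 to 0.20, among these 0.18 without CONT replicate 1, 0.17 without CAC replicate 1 and 0.20 without CAC replicate 2, and the median of all genes was -0.087 to 0.018, above 0 only without CAC replicate 1.

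No member passed an adjusted p of 0.05 in edgeR, nor did any of the 17296 genes, of which 13.3% had an unadjusted p under 0.05. The adjusted p of the members ran from 0.215 to 0.995. DESeq2, the tool used in the study, put 4 members below an adjusted p of 0.05 (Bnip3, Gabarapl1, Npc1 and Map1lc3b), all higher in CAC, beside 5.62% of the 17160 genes to which it gave an adjusted p (2.91% of the 33212 with a p-value). Leaving out 1 library at a time gave 1 to 8 members by DESeq2, with 1 without CAC replicate 2, 2 without CONT replicate 2 or CAC replicate 3, and 8 without CAC replicate 1. The calls over all genes moved too, at 696, 623, 615 and 1506 in those fits against 965 with all libraries. Of the 4 members, only Bnip3 stayed below 0.05 whichever library was left out. Npc1 did not without CONT replicate 2 or CAC replicate 2, and Gabarapl1 did not without these or CAC replicate 3. Map1lc3b stayed below only without CONT replicate 1 or CAC replicate 1. Limma's voom with sample quality weights put 5 members below that threshold, the same 4 and Ulk1, beside 5.51% of genes, and it gave CONT replicate 1 a weight of 0.186 against 0.613 to 2.34 for the others. The value of each library is therefore given first for each gene, and "higher" or "lower" describes the libraries where no test is named.

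**Figure D1:**
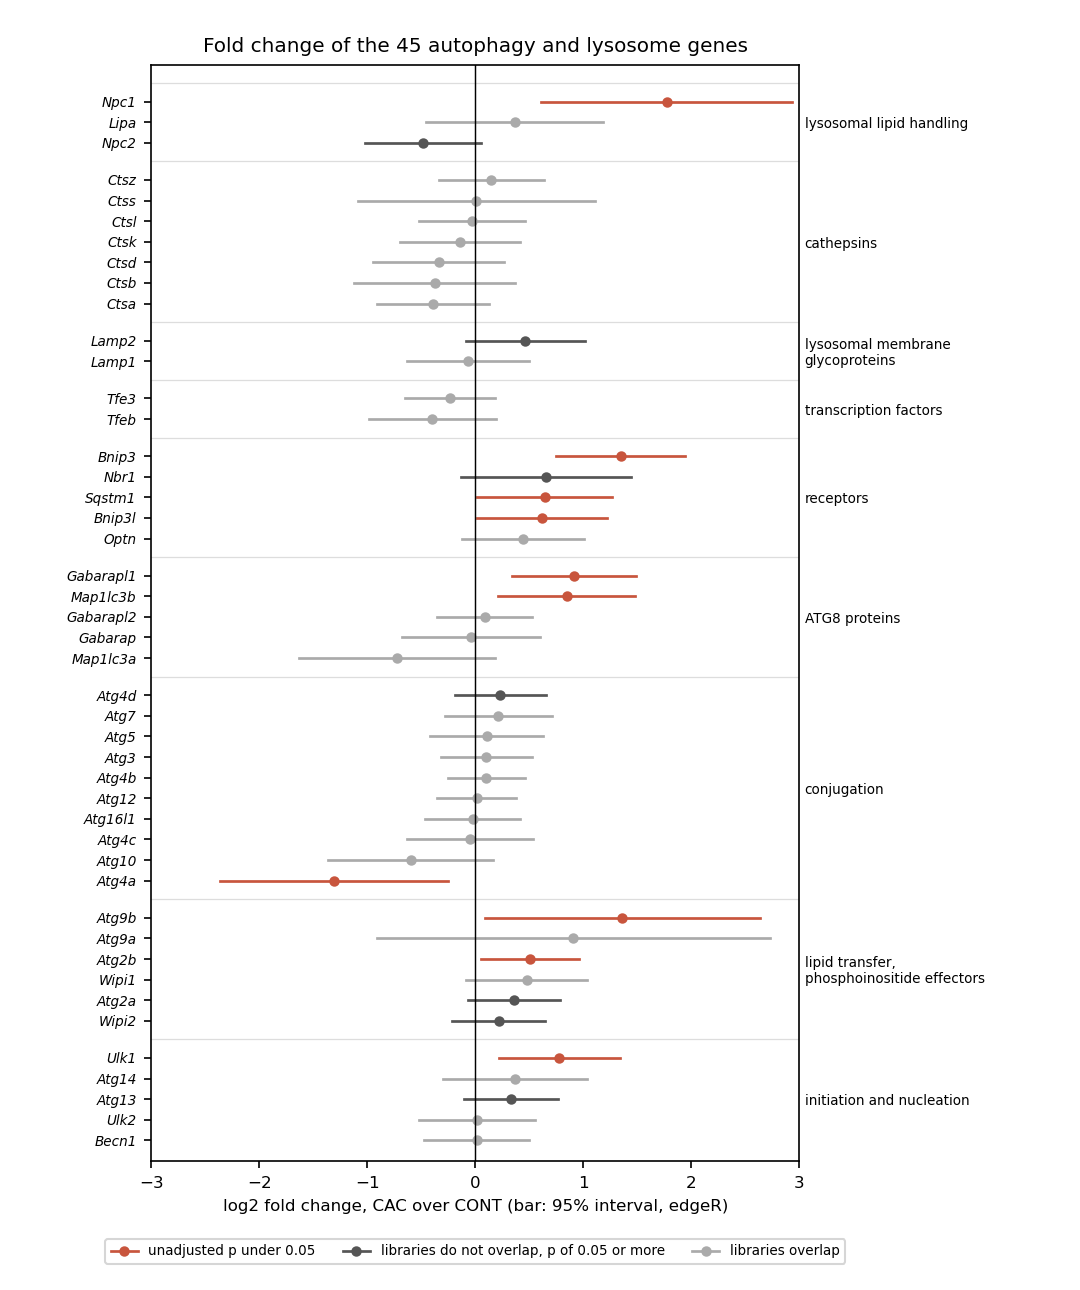
Log2 fold change of the 45 genes (CAC over CONT, edgeR, with the 95% interval), ordered by role from the start of autophagy at the bottom to lysosomal lipid handling at the top. Red marks the 10 genes with an unadjusted p under 0.05 and dark grey the other 7 whose libraries do not overlap. Of these 17, only Atg4a and Npc2 lie left of 0.

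Among the 5 genes that start the autophagosome, Ulk1 stood out. ULK1, the kinase that receives the signal of nutrient shortage, had a transcript level of 43.2, 55.4 and 60.2 CPM in the 3 CONT libraries and 69.2, 108 and 95.6 CPM in the CAC libraries. Every CAC library lay above every CONT library, and the mean went from 52.9 ± 8.77 to 90.9 ± 19.7 CPM (SD, n = 3 each). The log2 fold change was 0.78 ± 0.23 (SE), with an unadjusted p of 0.0138 and an edgeR adjusted p of 0.284. Ulk2, which encodes the related kinase, overlapped between the groups, at 62.0, 79.6 and 84.9 CPM in CONT and 89.0, 59.6 and 81.2 CPM in CAC. The Ulk1 to Ulk2 ratio of FPKM (reads scaled to gene length and to a library size set by the authors) was 0.641 to 0.653 in CONT and 0.716, 1.67 and 1.09 in CAC.

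Atg13, a subunit of the ULK1 complex, was higher by a smaller margin, with 36.2, 47.3 and 49.0 CPM in CONT and 53.3, 53.4 and 60.0 CPM in CAC (log2 fold change 0.33 ± 0.18, unadjusted p 0.117), and without CONT replicate 1 the log2 fold change was 0.22 (0.20 by voom). Becn1 and Atg14 encode parts of the lipid kinase complex that marks the growing membrane. Their libraries overlapped, at 55.1 to 71.7 CPM in CONT and 57.5 to 78.9 CPM in CAC for Becn1, and 10.5 to 17.6 CPM against 16.3 to 22.7 CPM for Atg14.

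All 6 genes for membrane growth had log2 fold changes above 0, with a median of 0.49, and for 4 of them every CAC library lay above CONT, against 11.8% of all genes. ATG2 proteins carry lipids into the sac. Atg2b measured 28.8, 38.6 and 39.4 CPM in CONT and 46.4, 50.3 and 55.4 CPM in CAC, a log2 fold change of 0.51 ± 0.19 (unadjusted p 0.0333, edgeR adjusted p 0.339). Atg2a gave 47.8, 49.0 and 47.2 CPM in CONT and 54.8, 56.7 and 73.4 CPM in CAC, a log2 fold change of 0.36 ± 0.18 (unadjusted p 0.0848), which was 0.23 without CAC replicate 3, and 0.48 at an unadjusted p under 0.05 without CAC replicate 1. The 2 paralogs thus lay above CONT in every CAC library, and the log2 fold change of Atg2b without CONT replicate 2, CAC replicate 2 or CAC replicate 3 was 0.58, 0.53 and 0.45, each at an unadjusted p of 0.05 or more. With offsets for gene length it was 0.33, also at an unadjusted p of 0.05 or more. Atg2b shares 383 exon bases with Gskip on the opposite strand, which had 2356 reads against 5922 for Atg2b. Wipi2 encodes a protein that reads the lipid mark, and it stood at 70.0, 88.2 and 87.1 CPM in CONT and 92.1, 88.3 and 105 CPM in CAC (log2 fold change 0.22 ± 0.18, unadjusted p 0.264), so that the groups were apart only by the margin of 88.2 to 88.3 CPM. Its log2 fold change was 0.13 without CONT replicate 1, 0.09 by voom and 0.06 with offsets for gene length. Wipi1 overlapped, with 33.8 to 50.6 CPM in CONT and 48.5 to 67.9 CPM in CAC, and met an unadjusted p under 0.05 in edgeR without CAC replicate 3, the library lowest in CAC, at a log2 fold change of 0.63.

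ATG9 proteins span the membrane and seed the sac. Atg9b was the least abundant of the 45, at a mean of 0.618 FPKM over the 6 libraries. It gave 1.78, 1.36 and 1.90 CPM in CONT and 2.05, 4.32 and 6.61 CPM in CAC (log2 fold change 1.36 ± 0.53, unadjusted p 0.0388, edgeR adjusted p 0.354), and CAC replicate 1 was barely above the control libraries. Without CAC replicate 3 the log2 fold change was 0.93, and the unadjusted p was 0.05 or more when any library but CAC replicate 1 was left out. Atg9b shares 294 exon bases with Nos3 on the opposite strand, which had 9160 reads against 425 for Atg9b, and since the strand setting of the counting is not given, their reads may be mixed. Atg9a varied widely, from 3.57 CPM in CONT replicate 1 to 61.2 CPM in CAC replicate 3, with the groups overlapping.

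The conjugation genes had a median log2 fold change of 0.06 over 10 genes, and 8 of the 10 overlapped between the groups. The 2 that did not make up 20%, close to the 22.5% of all genes. Atg3, Atg5, Atg7, Atg10, Atg12 and Atg16l1 encode the enzymes and partners that attach ATG8 proteins to lipid. Atg12 lay between 43.3 and 48.7 CPM and Atg16l1 between 44.4 and 57.5 CPM over all 6 libraries. Atg3 ran from 47.8 to 61.2 CPM, Atg5 from 21.5 to 34.2 CPM, Atg7 from 58.6 to 90.9 CPM and Atg10 from 6.57 to 16.2 CPM.

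ATG4 proteases trim ATG8 proteins before use and release them again, and their 4 genes did not share a direction. Atg4a was the only autophagosome gene lower in every CAC library, at 22.6, 16.5 and 51.2 CPM in CONT and 13.4, 12.7 and 10.3 CPM in CAC, with a log2 fold change of -1.31 ± 0.44 (unadjusted p 0.0223, edgeR adjusted p 0.306). The high CONT value was that of replicate 3, the library with most epididymis transcripts, and without it the log2 fold change was -0.67 and the unadjusted p was 0.05 or more. That was also so without any of the 3 CAC libraries, at -1.34, -1.33 and -1.19. The part of the epididymis transcripts in this result was not tested. Atg4d gave 20.5, 23.3 and 21.1 CPM in CONT and 25.2, 23.7 and 27.3 CPM in CAC (log2 fold change 0.23 ± 0.18, unadjusted p 0.229; 0.15 by voom and 0.14 with length offsets), and it shares 1405 exon bases with Kri1 on the opposite strand. Atg4b, at 38.5 to 45.7 CPM, and Atg4c, at 11.9 to 18.4 CPM, overlapped.

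**Figure D2:**
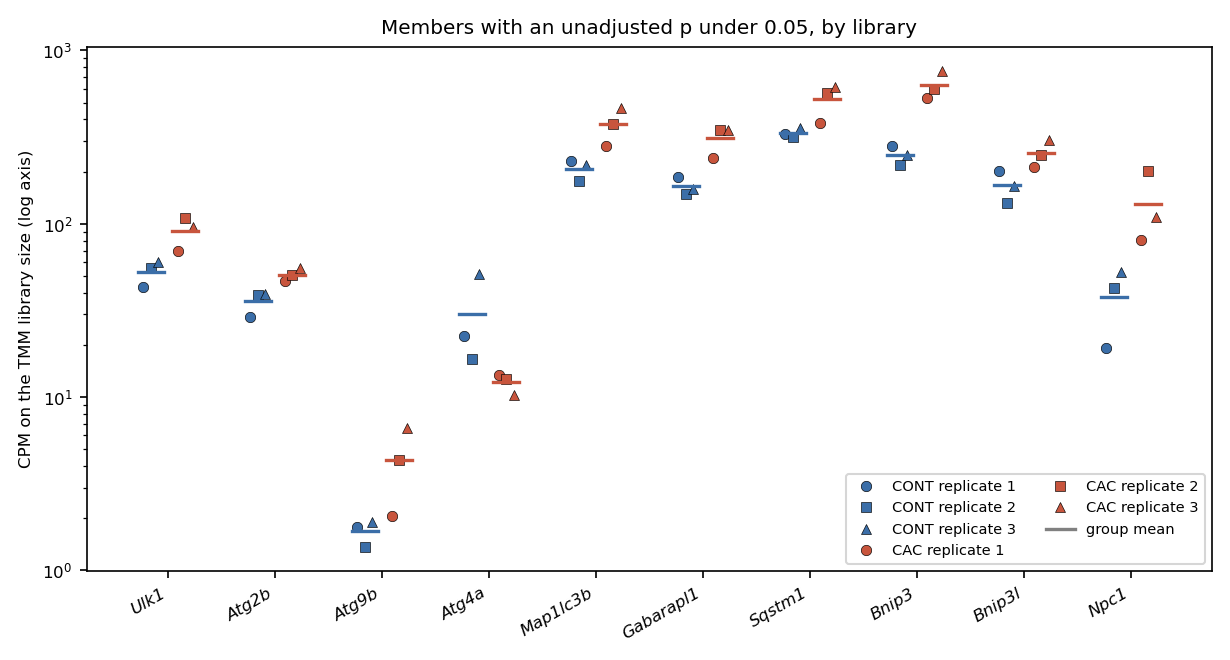
CPM of the 10 genes with an unadjusted p under 0.05 in each of the 6 libraries, on a log axis, with a bar at the mean of each group. Blue is CONT and red is CAC, the marker shape gives the replicate number, and the 2 groups do not overlap for any of the 10. Atg4a in CONT replicate 3, at 51.2 CPM, lies well above the other 5 libraries.

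Of the 5 ATG8 genes, 2 were higher in every CAC library, against 11.8% of all genes, and 3 overlapped. Gabarapl1, on chromosome 6 from 129533160 to 129542346, gave 186, 148 and 160 CPM in CONT and 239, 346 and 347 CPM in CAC. The means were 165 ± 19.5 and 311 ± 62.2 CPM (SD, n = 3 each). Its log2 fold change of 0.92 ± 0.24 had an unadjusted p of 0.00711 and an edgeR adjusted p of 0.261. Map1lc3b, which encodes LC3B, the protein most used to mark autophagosomes, gave 229, 176 and 219 CPM in CONT and 280, 376 and 466 CPM in CAC. Its log2 fold change was 0.85 ± 0.27 (unadjusted p 0.0166, edgeR adjusted p 0.291), and without CONT replicate 2 or CAC replicate 3 it was 0.74 and 0.67 at an unadjusted p of 0.05 or more. For both genes the lowest CAC library was replicate 1. Map1lc3b shares 58 exon bases with Zcchc14 on the opposite strand, which had 13792 reads against 39919.

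Gabarap, at 242 to 393 CPM in CONT and 263 to 323 CPM in CAC, and Gabarapl2, at 42.2 to 53.0 CPM against 43.1 to 55.2 CPM, showed no separation. Map1lc3a gave 296, 135 and 122 CPM in CONT and 124, 91.9 and 118 CPM in CAC. Its highest value was that of CONT replicate 1, without which the log2 fold change was -0.19 rather than -0.72. As a share of the summed FPKM of the 5 ATG8 genes, Gabarapl1 made up 15.2%, 20.4% and 21.5% in CONT and 27.8%, 36.8% and 32.4% in CAC. Map1lc3a made up 41.1%, 31.6% and 28.1% in CONT and 24.6%, 16.6% and 18.8% in CAC. These shares were computed after the values were seen and are given without a test. Shares sum to a whole, so a gain in Gabarapl1 lowers the share of the others. The summed ATG8 level itself overlapped, at 288 to 494 FPKM in CONT and 352 to 434 FPKM in CAC.

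All 5 cargo receptor genes had log2 fold changes above 0 (median 0.64), as did all 5 initiation and all 6 membrane growth genes, against 45.9% of all genes. Of the initiation genes, Ulk2 and Becn1 were close to 0 and changed sign under 6 and 5 of 17 alternatives. For 4 of the 5 receptor genes every CAC library lay above CONT, against 11.8% of all genes. Their summed level was 241, 209 and 236 FPKM in CONT and 364, 440 and 537 FPKM in CAC. Bnip3 encodes a mitochondrial outer membrane protein that ties mitochondria to the autophagosome, and it is a well-known target of hypoxia signalling. The gene, on chromosome 7 from 138890836 to 138909519, gave 279, 218 and 248 CPM in CONT and 532, 600 and 762 CPM in CAC. The 3 CAC libraries lay far above the 3 CONT libraries, and the means were 248 ± 30.6 and 632 ± 118 CPM (SD, n = 3 each). Bnip3 had the smallest p-value of the 45, with a log2 fold change of 1.35 ± 0.25, a 95% interval of 0.75 to 1.95, an unadjusted p of 0.00123 and an edgeR adjusted p of 0.215. DESeq2 gave it an adjusted p of 6.83e-06. Leaving out any 1 library kept the log2 fold change at 1.20 or more.

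Bnip3l encodes NIX, the paralog of BNIP3 that clears mitochondria from maturing red cells. It gave 203, 132 and 165 CPM in CONT and 213, 248 and 305 CPM in CAC, with CONT replicate 1 just below CAC replicate 1. Its log2 fold change was 0.62 ± 0.25 (unadjusted p 0.0462, edgeR adjusted p 0.37). Without CONT replicate 2, CONT replicate 3, CAC replicate 2 or CAC replicate 3 it was 0.48, 0.62, 0.65 and 0.48, each at an unadjusted p of 0.05 or more. The 4 erythroid markers were highest in CONT replicate 1, at a summed 4587 CPM, then 229 and 354 CPM in the other CONT libraries and 1729 to 2195 CPM in CAC, and their part in this result was not tested. A processed copy, Bnip3l-ps, had 2517 reads against 28362 for Bnip3l. The Bnip3 to Bnip3l ratio of FPKM was 2.35, 2.80 and 2.56 in CONT and 4.25, 4.12 and 4.27 in CAC, and every CAC ratio lay above every CONT ratio.

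Sqstm1 encodes p62, a receptor for ubiquitin-tagged cargo that is itself degraded by autophagy. It gave 328, 315 and 357 CPM in CONT and 380, 567 and 616 CPM in CAC, a log2 fold change of 0.64 ± 0.26 (unadjusted p 0.045, edgeR adjusted p 0.368). CAC replicate 1 lay near the CONT libraries, and with any library but that one left out the unadjusted p was 0.05 or more, at log2 fold changes of 0.52 to 0.71. Nbr1, which encodes a receptor of similar build, gave 89.4, 160 and 141 CPM in CONT and 165, 169 and 283 CPM in CAC (log2 fold change 0.66 ± 0.33, unadjusted p 0.0874), and the log2 fold change was 0.37 without CAC replicate 3 and 0.35 by voom. Optn, for the receptor optineurin, overlapped at 36.7 to 56.1 CPM in CONT and 52.1 to 73.0 CPM in CAC, and met an unadjusted p under 0.05 in edgeR only without CAC replicate 1, at a log2 fold change of 0.64. Of the 7 monocyte and neutrophil markers, 5 were higher in every CAC library, against 11.8% of all genes. Ly6c2 and Ccr2 overlapped, with log2 fold changes of 0.49 ± 0.63 and -0.10 ± 0.35. The summed level of the 7 was 34.7 to 113 CPM in CONT and 187, 285 and 1118 CPM in CAC. In CAC replicate 3, where Bnip3, Bnip3l, Sqstm1 and Nbr1 were highest too, S100a8 and S100a9 gave 492 and 461 CPM. The part of these markers in the receptor values was not tested.

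The transcripts of Tfeb and Tfe3 did not separate the groups. Tfeb gave 24.8 to 39.1 CPM in CONT and 19.4 to 26.6 CPM in CAC, and Tfe3 gave 44.0 to 57.6 CPM and 40.0 to 46.0 CPM. Both factors are controlled chiefly by their move into the nucleus, which RNA does not measure. Of the members with a RefSeq window, CACGTG was present in 1 of the 8 with an unadjusted p under 0.05 (Bnip3) and in 8 of the 30 others.

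Of the 12 lysosome genes, 5 had a log2 fold change above 0, beside 45.9% of all genes, and their median of -0.05 was close to the -0.055 of all genes. LAMP1 and LAMP2 line the lysosomal membrane. Lamp1, with its 4 E-boxes shown above, overlapped at 384, 490 and 533 CPM in CONT and 491, 427 and 426 CPM in CAC. Lamp2 was higher in every CAC library, at 225, 284 and 313 CPM in CONT and 340, 373 and 422 CPM in CAC (log2 fold change 0.46 ± 0.23, unadjusted p 0.0861). It met an unadjusted p under 0.05 under 4 of 17 alternatives, among them DESeq2 and voom, at log2 fold changes of 0.49 and 0.36. The Lamp2 to Lamp1 ratio of FPKM was 0.164, 0.162 and 0.165 in CONT and 0.194, 0.245 and 0.277 in CAC.

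None of the 7 cathepsin genes had an unadjusted p under 0.05 in edgeR with all 6 libraries, and all 7 overlapped, where 13.3% and 22.5% of all genes were called or did not overlap, so that a count of 0 of 7 says little. Ctsa met that threshold in edgeR without CAC replicate 1, at a log2 fold change of -0.52. Ctsb and Ctsd, for the major cysteine and aspartic proteases of the lysosome, were among the 8 members with a mean above 100 FPKM. Ctsb gave 1083, 1426 and 1458 CPM in CONT and 1343, 841 and 875 CPM in CAC. Ctsd gave 497, 626 and 595 CPM in CONT and 526, 359 and 475 CPM in CAC, and Ctsa gave 130, 146 and 162 CPM against 137, 104 and 92.9 CPM. On the opposite strand, Ctsa shares 495 exon bases with Pltp, which had 15864 reads against 16757 for Ctsa, and Ctsb shares 774 with Fdft1, which had 13344 against 153648. For Ctsa, Ctsb and Ctsd, CAC replicates 2 and 3 were below every CONT library, while CAC replicate 1 lay within the CONT range. Ctsl, at 284 to 359 CPM, Ctsz, at 159 to 221 CPM, and Ctsk, at 13.0 to 20.5 CPM, gave narrow ranges over the 6 libraries, and Ctss ran from 33.8 CPM in CONT replicate 1 to 117 CPM in CONT replicate 2.

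Macrophages are rich in lysosomes, so their markers are given beside the cathepsins. The summed level of the 15 macrophage markers was 897, 2386 and 2396 CPM in CONT and 2008, 1149 and 1317 CPM in CAC, with CONT replicate 1 lowest and CAC replicate 1 highest in its group, as for Ctsb. Of the 15, 2 were higher (Gpnmb and Mertk) and 2 lower (C1qa and Cx3cr1) at an unadjusted p under 0.05, and none was at 0 in every library. Their part in the cathepsin values was not tested. With sample quality weights, voom placed Ctsa, Ctsb, Ctsd and Npc2 at an unadjusted p under 0.05, lower in CAC, when 28.2% of all genes met that threshold.

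**Figure D3:**
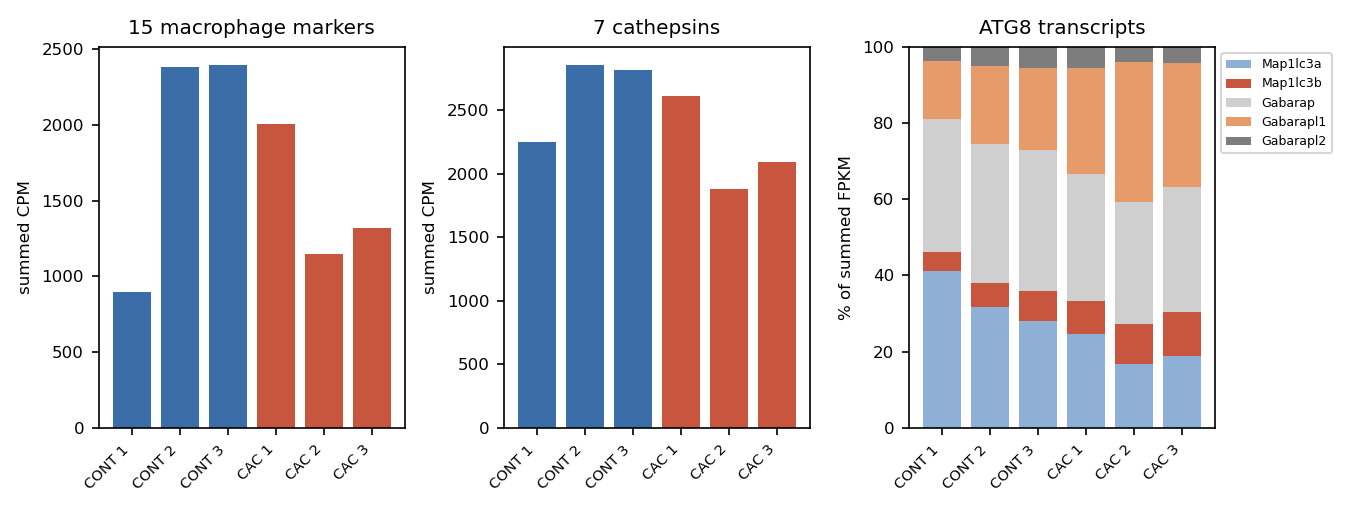
Summed CPM of the 15 macrophage markers (left) and of the 7 cathepsin genes (middle), and the percent of the summed FPKM of the 5 ATG8 genes held by each (right), 1 bar per library, with CONT in blue and CAC in red in the first pair of panels. CONT replicate 1 and CAC replicates 2 and 3 are the 3 lowest libraries for both the markers and the cathepsins, and the Gabarapl1 share is 27.8% to 36.8% in the CAC libraries and 15.2% to 21.5% in the CONT libraries.

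The 3 genes for lysosomal lipids did not share a direction. Npc1, for the membrane protein that exports cholesterol, had the largest log2 fold change of the 45, with 19.2, 42.6 and 52.3 CPM in CONT and 80.2, 201 and 109 CPM in CAC. The means were 38.0 ± 17.0 and 130 ± 63.4 CPM (SD, n = 3 each), and no CAC library came down to the CONT range. The log2 fold change was 1.77 ± 0.48, with a 95% interval of 0.61 to 2.93, an unadjusted p of 0.00902 and an edgeR adjusted p of 0.269, and it stayed between 1.32 and 2.09 with any 1 library left out. DESeq2 gave an adjusted p of 0.0118, and this call was lost without CONT replicate 2 or CAC replicate 2. Npc1 shares 511 exon bases with Rmc1 on the opposite strand, which had 4054 reads against 12168 for Npc1.

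Npc2 encodes the soluble partner that hands cholesterol to NPC1, and it was lower in every CAC library, at 482, 547 and 555 CPM in CONT and 432, 366 and 333 CPM in CAC. Its log2 fold change was -0.49 ± 0.22 (unadjusted p 0.0689, edgeR adjusted p 0.41), and without CONT replicate 1 it was -0.53 at an unadjusted p under 0.05. The Npc1 to Npc2 ratio of FPKM was 0.0202, 0.0395 and 0.0478 in CONT and 0.0942, 0.279 and 0.166 in CAC. Lipa, for lysosomal acid lipase, overlapped at 36.9 to 75.9 CPM in CONT and 66.3 to 107 CPM in CAC. The FPKM ratios were chosen after the values were seen, with a gene already higher in CAC on top in each, so their direction is no added support. Among 10 such pairs, Sqstm1 to Nbr1 and Atg9b to Atg9a overlapped.

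A wider list of 126 other autophagy and lysosome genes was read in the same fit, and all were tested. At an unadjusted p under 0.05, 8 were higher and 2 lower in CAC, or 7.94% against the 13.3% of all genes, and the median log2 fold change was 0.0009. The libraries separated for 24 (19%, against 22.5% of all genes), 16 of them higher. No gene of it passed an adjusted p of 0.05 in edgeR.

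**Figure D4:**
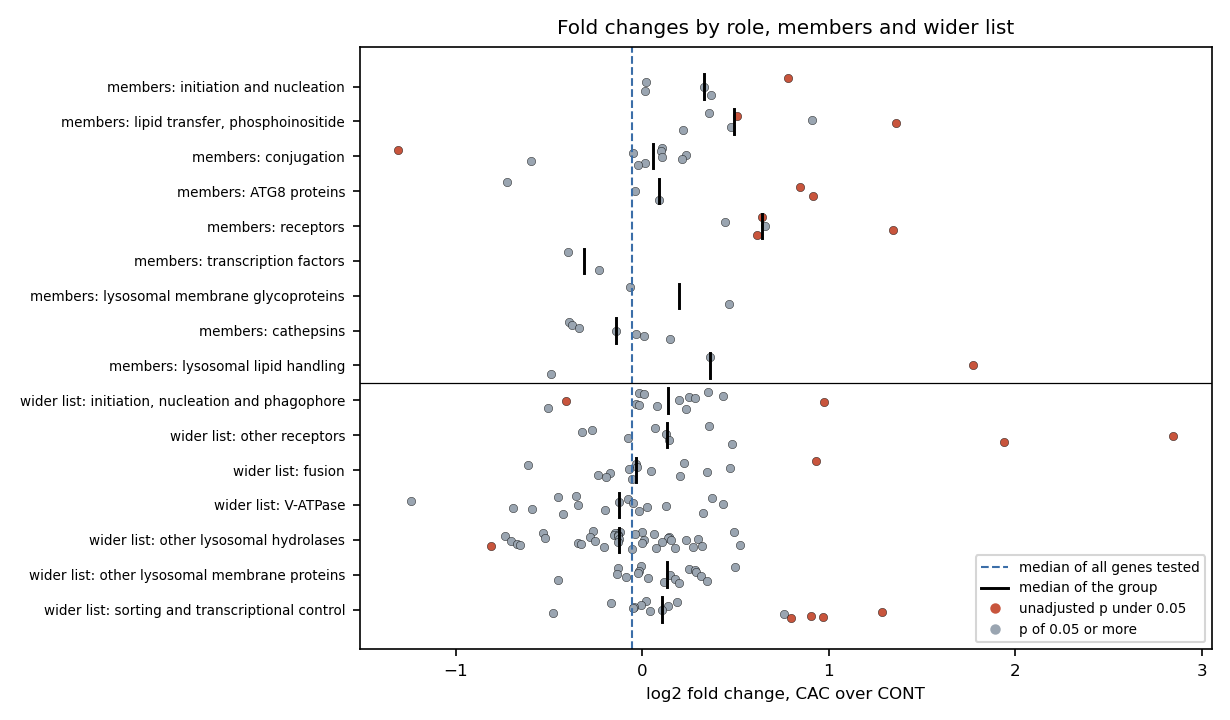
Log2 fold change (CAC over CONT, edgeR) of each of the 45 genes (above the line) and of the 126 genes of the wider list (below it), 1 point per gene, by role. Red points have an unadjusted p under 0.05, black bars are group medians and the dashed line is the median of all genes tested. The receptors among the 45 have a median of 0.64 and the cathepsins of -0.14.

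The genes of the wider list that met the unadjusted threshold lay mostly outside the lysosome. Ncoa4, for the receptor that brings ferritin to the autophagosome, gave 46.5, 100 and 134 CPM in CONT and 335, 349 and 395 CPM in CAC (log2 fold change 1.94 ± 0.40, unadjusted p 0.00215), with no overlap. Retreg1, for a receptor of endoplasmic reticulum, had 1.96, 17.6 and 14.3 CPM in CONT and 8.38, 68.8 and 169 CPM in CAC, where the groups overlapped (log2 fold change 2.85 ± 1.15). Vmp1, for a protein of the early sac, was higher by a log2 fold change of 0.97 ± 0.35, and Stx17, for the syntaxin that joins autophagosome and lysosome, by 0.93 ± 0.31. Rubcn, for the autophagy inhibitor Rubicon, was lower at 58.3, 55.2 and 54.9 CPM in CONT and 44.1, 39.2 and 43.6 CPM in CAC (log2 fold change -0.41 ± 0.15, unadjusted p 0.032).

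Among 15 genes of lysosomal sorting and transcriptional control, 4 were higher at the unadjusted threshold. Mitf, a relative of Tfeb, gave 12.9, 13.4 and 19.4 CPM in CONT and 20.6, 38.5 and 52.4 CPM in CAC (log2 fold change 1.28 ± 0.38, unadjusted p 0.0122). Foxo1 and Foxo3, for factors that insulin signalling holds out of the nucleus, had log2 fold changes of 0.90 ± 0.24 and 0.97 ± 0.27. Flcn, for the folliculin that governs TFEB, had 0.80 ± 0.24. Of the 17 V-ATPase subunit genes, which acidify the lysosome, and of the 18 other lysosomal membrane genes, 0 met the threshold, beside 13.3% of all genes, and with lists this short the differences between them were not tested. Of 38 other hydrolase genes, only Dnase2a did, lower at 29.5, 23.2 and 27.6 CPM in CONT and 14.7, 17.2 and 13.8 CPM in CAC (log2 fold change -0.81 ± 0.20, unadjusted p 0.00584).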

How the data were processed

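RNA of epididymal fat from 3 CONT and 3 CAC mice was sequenced as polyadenylated mRNA, 1 library per mouse, and groups and replicate numbers were taken from the sample labels. The authors aligned the reads to the mouse genome of Ensembl with HISAT2 2.0.5 and counted them with featureCounts 1.5.0-p3, per the submitters' processing notes. The strand setting is not given in the sources used here. The deposited counts are whole reads per gene without normalization, and the deposited FPKM values are the same counts over gene length, scaled to a library size of the authors' choice. This size, 13817709 to 32509179, was not the total of the counts (0.879 to 1.44 times it) and was 1.21 to 1.25 times the TMM-adjusted size used here. Coordinates are those of GRCm38 as deposited, and 43 of the 45 genes have the same start and end in GENCODE M21. The genome coordinates of sequences are those of the RefSeq table.

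The counts were fitted in edgeR 4.0.16 under R 4.3.3 (filterByExpr, TMM, then the robust quasi-likelihood test with CAC against CONT alone), and p-values were adjusted by Benjamini-Hochberg over the 17296 genes tested. All tests are two-sided. CPM uses the TMM-adjusted library size. Libraries do not overlap when the lowest of the higher group exceeds the highest of the lower group, for which an exact permutation test of 3 against 3 libraries cannot go below p = 0.1. Limma 3.58.1 and DESeq2 1.42.0, normalization, filters, gene length offsets, log2(FPKM + 1) and log2(FPKM + 0.1), the replicate block, mitochondrial genes and each library left out were tried as alternatives. A fold change on the log2(FPKM + pseudocount) scale understates the change of low genes. The members and lists were chosen with earlier results of these data known. Fold changes are given for members with an unadjusted p under 0.05 or no overlap, the other members by level, and from the wider list those with an unadjusted p under 0.05. The libraries have no molecular identifiers, and a count of 0 allows up to 3 reads, or 0.113 to 0.268 CPM.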

Additional observations from a re-analysis of the deposited data

How the results depend on the processing

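The direction of the 17 genes given with a fold change held under all 17 alternatives (15 for Atg9b, which the FPKM filter left out), and of 287 values 244 kept their side of the unadjusted threshold of 0.05. Ulk1, Gabarapl1, Bnip3 and Npc1 met it under every alternative, Map1lc3b under 15 and Atg2b under 13, Atg4a under 11, Bnip3l under 10, Atg9b and Sqstm1 under 9. Of the 28 other members, 13 changed sign under at least 1 alternative, and over the alternatives these 13 ranged from -0.53 (Ctss) to 0.53 (Lipa). With all 6 libraries, the edgeR 95% interval of each of the 28 includes 0.

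No member passed an adjusted p of 0.05 in edgeR, against 4 by DESeq2 and 5 by voom with sample quality weights. DESeq2 without single libraries gave 1 to 8. The count of members with an unadjusted p under 0.05 was 10, and 5 to 12 without single libraries (5 without CONT replicate 2, CAC replicate 2 or CAC replicate 3, and 6 without CONT replicate 3). The wider list had 10 such genes of 126, 16 by DESeq2 and 29 by voom, beside 13.3%, 9.73% and 28.2% of all genes. The median log2 fold change of 0.11 was 0.07 with upper-quartile normalization (26 members above 0 rather than 30), 0.18 without a filter, 0.15 by voom, 0.14 with length offsets, 0.15 on log2(FPKM + 0.1), and 0.14 to 0.20 without single libraries. The causes were not tested.

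With the replicate number as a block, 6 members had an unadjusted p under 0.05 (Ulk1, Atg2b, Map1lc3b, Gabarapl1, Bnip3 and Npc1), or 6 of 45 beside 11.5% of all genes. The deviations of same-numbered libraries from their group means correlated at 0.257, -0.155 and -0.216 over 13495 genes. Those of differently numbered libraries correlated at -0.403 to 0.456. With 3 libraries in each group these values depend on one another, so they cannot show whether the numbers pair the samples.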
